A study of Danio rerio with 27 samples.

Results

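The genes hmgcs1 (ENSDARG00000103025), hmgcra (ENSDARG00000052734) and cyp51 (ENSDARG00000042641) were taken by their Ensembl identifiers from a table of 18336 genes, so 3 genes are described here in all 27 RNA-seq libraries. The libraries came from sorted liver cells of adult female zebrafish in the AB background, and each was made from 100000 cells. The line Tg(fabp10a:dsRed) marks hepatocytes (HEPs), Tg(hand2:EGFP) marks hepatic stellate cells (HSCs) and Tg(kdrl:ras-mCherry) marks endothelial cells (ECs), each through the promoter that drives its fluorescent protein. Fish of every line received 6 intraperitoneal injections over 2 weeks, either of thioacetamide (TAA), a liver toxicant, at 500 mg/kg or of the control solution, which the labels give as sterile water. Each line gave 3 groups of 3 libraries, namely reporter-negative control cells, reporter-positive control cells and reporter-positive TAA cells, so no group holds reporter-negative cells of TAA fish. HEP, HSC and EC below name reporter-positive libraries unless the negative cells are named. The methods count fewer control-injected fish than there are control replicates over the lines, so if no further fish were used, some control libraries of a line share a fish. Which ones is not stated, so every library was treated as a replicate, the p-values measure the spread between these libraries, and the errors may be too small.

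Cells make cholesterol from acetyl-CoA through the mevalonate pathway and then through squalene and lanosterol, and the liver is a main site of this synthesis. The enzyme of hmgcs1 makes HMG-CoA, hmgcra encodes the enzyme of the rate-limiting step, which gives mevalonate, and cyp51 encodes the demethylase that acts on lanosterol in the sterol arm. In mammals the transcription factor SREBP-2 raises the genes of all these steps when sterols in the endoplasmic reticulum are low, with SCAP and the INSIG proteins as its sensors.

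All values are regularized logarithms (rlog) of the authors, on the log2 scale. The rlog is not scaled by gene length, so levels were compared between libraries of the same gene and not between genes. Differences of rlog means are given as log2 differences, and the rlog pulls those of genes with few counts towards 0. The sequencing depth of a library cannot be read from these values.

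Marker genes were read before the members, because some libraries stood apart. The libraries labelled as TAA-treated ECs did not carry an endothelial profile. Their mean over 16 endothelial markers was 0.80 ± 0.16 (SD, n = 3), the lowest of the 9 groups, against 8.56 ± 0.20 in control ECs. Their mean over 14 hepatocyte markers was 12.89 ± 0.23, the highest group, against 8.43 ± 0.60. All 16 endothelial markers were lower and all 14 hepatocyte markers higher in these libraries (limma, adjusted p under 0.05), and the mean over 8 leukocyte markers was 1.99 against 8.82. Of all genes 51.2% passed in this comparison, 3611 being higher and 5776 lower. In the HSC line the mean over 13 stellate markers was 1.48 ± 0.48 in EGFP-positive controls and 1.67 ± 1.08 in EGFP-negative controls. Between them 0 markers passed limma's test (1 at an unadjusted p under 0.05). Of all 18336 genes 0 passed there too (1954 at an unadjusted p under 0.05), so this count says nothing particular about the markers. In TAA HSCs the stellate mean was 3.10 ± 0.14. The hepatocyte marker mean was 11.82 ± 0.50 in control HSCs and 11.95 ± 0.23 in control HEPs. In the EGFP-negative library 3 the hepatocyte mean was 6.45, while the endothelial mean was 6.73 and the leukocyte mean 9.23. Its stellate mean was 2.91, which lifts the mean of its group. EGFP-negative libraries 1 and 2 had stellate means of 1.12 and 0.98, and the EGFP-positive control libraries had 1.96, 1.48 and 1.01. The EC and HSC libraries are therefore named here by their labels, and in sorted bulk samples fewer cells of a type and less RNA per cell cannot be told apart.

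**Figure D1:**
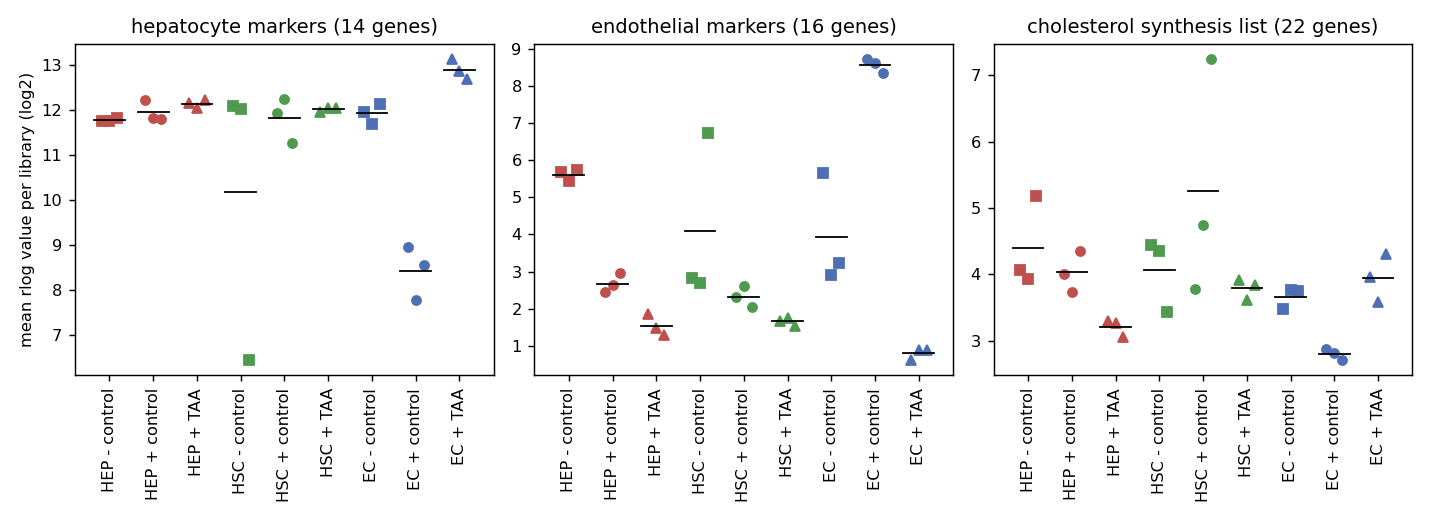
Mean rlog value (log2) per library over hepatocyte markers, endothelial markers and cholesterol synthesis genes in the 9 groups, where - and + are reporter-negative and reporter-positive cells, points are libraries and lines are group means. The EC + TAA libraries have the highest hepatocyte (12.89) and the lowest endothelial mean (0.80), and 1 control HSC library stands above all others in the cholesterol synthesis genes (7.24).

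The rate-limiting gene hmgcra varied most between groups. Its rlog values for replicates 1, 2 and 3 were 6.14, 4.15 and 7.23 in control HEPs, and 1.52, 0.87 and 0.90 in TAA HEPs. In control HSCs they were 7.13, 8.04 and 11.54, and in TAA HSCs 4.09, 4.86 and 4.30. In both cell types every TAA library was below every control library. How many of all genes were apart in this way was not counted. Control ECs had 2.89, 0.57 and 1.33, and TAA ECs had 4.36, 2.62 and 7.59, so the lowest TAA library lay within the control range. The reporter-negative cells had 6.55, 5.22 and 8.81 in the HEP line, 6.60, 7.69 and 4.70 in the HSC line, and 3.06, 4.28 and 4.02 in the EC line. The group means ran from 8.90 in control HSCs down to 1.60 in control ECs and 1.09 in TAA HEPs. Of the 8 neighbouring pairs in this order 7 overlapped in their libraries, and the EC-negative cells and control ECs did not.

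The gene hmgcs1, whose enzyme acts just before that of hmgcra, lay in a narrower range. It was at 5.01, 5.15 and 5.88 in control HEPs and at 6.58, 5.36 and 5.04 in TAA HEPs. In control HSCs it was at 5.38, 7.06 and 10.92, and in TAA HSCs at 5.81, 5.66 and 5.71, so the lowest control HSC library was below all TAA HSC libraries. It was at 4.67, 4.69 and 3.39 in control ECs and at 4.79, 3.98 and 5.35 in TAA ECs, which overlap. The reporter-negative cells had 5.34, 4.93 and 7.35 in the HEP line, 6.33, 6.76 and 5.82 in the HSC line, and 4.65, 5.03 and 4.96 in the EC line. Control HSCs had the highest mean (7.79) and control ECs the lowest (4.25), and all 8 neighbouring pairs overlapped.

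The lanosterol demethylase cyp51 was at 5.19, 4.90 and 6.49 in control HEPs and at 4.16, 4.37 and 4.35 in TAA HEPs. In HSCs it was at 6.23, 7.75 and 10.48 in controls and at 5.52, 5.58 and 5.83 with TAA. It was at 3.96, 4.11 and 4.59 in control ECs and at 5.97, 5.65 and 6.34 in TAA ECs. TAA and control libraries did not overlap in any of these cell types, lower with TAA in HEPs and HSCs and higher in ECs. The share of all genes without such overlap was not counted. The reporter-negative cells had 5.78, 5.82 and 7.88 in the HEP line, 6.34, 6.26 and 4.87 in the HSC line, and 5.31, 5.46 and 5.87 in the EC line. The means ran from 8.15 in control HSCs to 4.29 in TAA HEPs and 4.22 in control ECs. Of the 8 neighbouring pairs 7 overlapped, and control and TAA HEPs, which are neighbours in this order, did not.

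**Figure D2:**
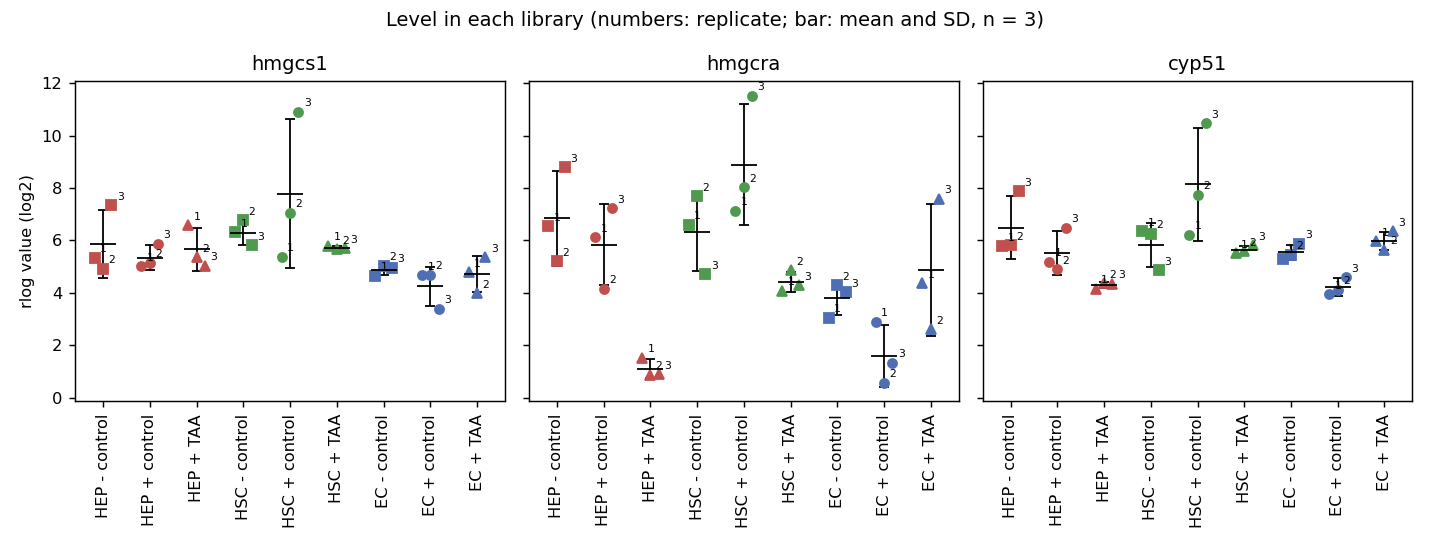
The rlog value (log2) of hmgcs1, hmgcra and cyp51 in each of the 27 libraries, by group, with reporter-negative (-) and reporter-positive (+) cells, replicate numbers beside the points, and the mean and SD (n = 3) as bars. Replicate 3 of control HSCs has the highest value of each gene, 10.92, 11.54 and 10.48, and hmgcra in TAA HEPs lies between 0.87 and 1.52.

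Control HSCs had the highest mean of every member. This contrast was the one for which the study named these genes, so it is given as a description. Against the mean of control HEPs and ECs, the log2 difference was 5.18 for hmgcra, 2.99 for hmgcs1 and 3.28 for cyp51. Without replicate 3 of control HSCs it was 3.87, 1.42 and 2.12. The highest values of hmgcs1 among control HEPs and ECs (5.88), of hmgcra (7.23) and of cyp51 (6.49) were all above the lowest control HSC library. Among TAA libraries the same differences were 1.44, 0.54 and 0.50.

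The control HSCs also spread widely. The SD over their 3 libraries was 2.33 for hmgcra, 2.84 for hmgcs1 and 2.16 for cyp51, where the median SD of all genes in the group was 0.49. In TAA HSCs the SDs were 0.40, 0.077 and 0.16, with a median of 0.25. The largest hmgcra SD, 2.52, was in TAA ECs. Replicate 3 of control HSCs was the highest of all 27 libraries for each member, and its hepatocyte marker mean of 11.28 and stellate marker mean of 1.01 were the lowest of its group. The part of these in its high values was not tested.

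TAA and control cells were compared within each cell type to see how the toxicant moved the pathway. In HEPs hmgcra fell by 4.75 on the log2 scale (SE 1.07, limma adjusted p = 0.00965), whereas cyp51 (-1.23, SE 0.65, adjusted p = 0.281) and hmgcs1 (0.31, SE 0.85, adjusted p = 0.871) did not pass. Each SE pools the spread of a gene over all reporter-positive groups, not only the groups compared. For cyp51 the SD was 0.85 in control HEPs and 0.12 in TAA HEPs, but 2.16 in control HSCs. So 1 of 3 members was called, where 7.4% of all genes were. With 3 against 3 libraries the exact permutation test cannot go below 0.10, which is the value that hmgcra and cyp51 reached. Without replicate 3 of control HEPs the hmgcra difference was -4.05 and the adjusted p 0.0508. In the same libraries 6 of 8 leukocyte markers and 3 of 16 endothelial markers fell with TAA and 0 of either rose, with median log2 differences of -1.79 and -1.23. The leukocyte marker mean ran from 6.34 to 7.42 in control HEPs and from 4.93 to 5.17 in TAA HEPs, while 0 of 14 hepatocyte markers passed limma's test in either direction (3 at an unadjusted p under 0.05). The part of these markers in the hmgcra difference was not tested.

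In HSCs hmgcra fell by 4.49 (SE 1.07, limma adjusted p = 0.0134) and cyp51 by 2.51 (SE 0.65, adjusted p = 0.021). The hmgcs1 difference was -2.06 (SE 0.85, adjusted p = 0.143). Thus 2 of 3 members were called, against 8.21% of all genes. The study named these genes as high in these same control HSC libraries. That choice favours a fall here, so these p-values are not independent of it. Neither call held without replicate 3 of control HSCs, where the differences were -3.17 (adjusted p = 0.0664) for hmgcra, -1.35 (adjusted p = 0.0604) for cyp51 and -0.50 (adjusted p = 0.606) for hmgcs1. Without control replicate 1, the lowest of its group, all 3 members fell, hmgcs1 by 3.26 (adjusted p = 0.0105). Leaving out TAA replicate 1 or 3 also ended the call of hmgcra (adjusted p = 0.0563 and 0.0518), and leaving out any TAA library ended that of cyp51 (adjusted p from 0.0577 to 0.0747). When HSC libraries were fitted alone, the adjusted p of cyp51 was 0.1. Stellate markers were higher in TAA HSCs (7 of 13 rose and 0 fell) and leukocyte markers lower (6 of 8 fell), and their part in the members' differences was not tested.

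In the libraries labelled as ECs the direction was the opposite. With TAA hmgcra rose by 3.26 (SE 1.07, limma adjusted p = 0.0155) and cyp51 by 1.76 (SE 0.65, adjusted p = 0.0288), and hmgcs1 differed by 0.45 (SE 0.85, adjusted p = 0.692). Again 2 of 3 members were called, but 51.2% of all genes were, in either direction, so this share is close to the background. Control ECs were on the reference side of the contrast for which the study named the genes, which favours a rise. The hmgcra libraries overlapped (exact permutation p = 0.2, n = 3 and 3), and its call ended without TAA replicate 3 (1.89, adjusted p = 0.138), without control replicate 2 (2.74, adjusted p = 0.0703) and in a fit of the EC libraries alone (adjusted p = 0.0568). The cyp51 call ended without control replicate 1 or 2 or TAA replicate 1 or 3 (adjusted p from 0.0579 to 0.0901), while its difference stayed between 1.59 and 1.95. All 14 hepatocyte markers rose and all 16 endothelial and 8 leukocyte markers fell in the same comparison, and their part in the members' rise was not tested. Over all genes 3611 were higher and 5776 lower, and with libraries centred on their median 5833 were higher and 3756 lower. After this centring hmgcra and cyp51 remained higher and past the threshold.

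The difference between these TAA changes was tested directly, each pair of changes sharing one of the cell types. The hmgcra change was a rise in ECs and a fall in HEPs and HSCs. Its EC value minus the HEP value was 8.0 (SE 1.52, limma adjusted p = 0.000283). Minus the HSC value it was 7.75 (SE 1.52, limma adjusted p = 0.000355). For cyp51 these differences were 3.0 (SE 0.92, adjusted p = 0.0132) and 4.28 (SE 0.92, adjusted p = 0.000839). For hmgcs1 they were 0.14 (adjusted p = 0.94) and 2.52 (adjusted p = 0.0998). Thus 2 of 3 members passed in both, where 40.9% of all genes passed against HEPs and 43.1% against HSCs. The study named the genes as high in control HSCs against control HEPs and ECs, which favours a positive EC minus HSC value. Between HSCs and HEPs no difference of changes passed (0 of 3 by limma, also at an unadjusted p under 0.05, against 2.86% of all genes), the values being 0.26 (SE 1.52) for hmgcra, -2.37 (SE 1.2) for hmgcs1 and -1.28 (SE 0.92) for cyp51. Averaged over the cell types, hmgcra fell by 1.99 (SE 0.62, limma adjusted p = 0.0143), hmgcs1 differed by -0.43 and cyp51 by -0.66, with 40.6% of all genes called. The average hmgcra value had a permutation p of 0.124 within cell types.

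**Figure D3:**
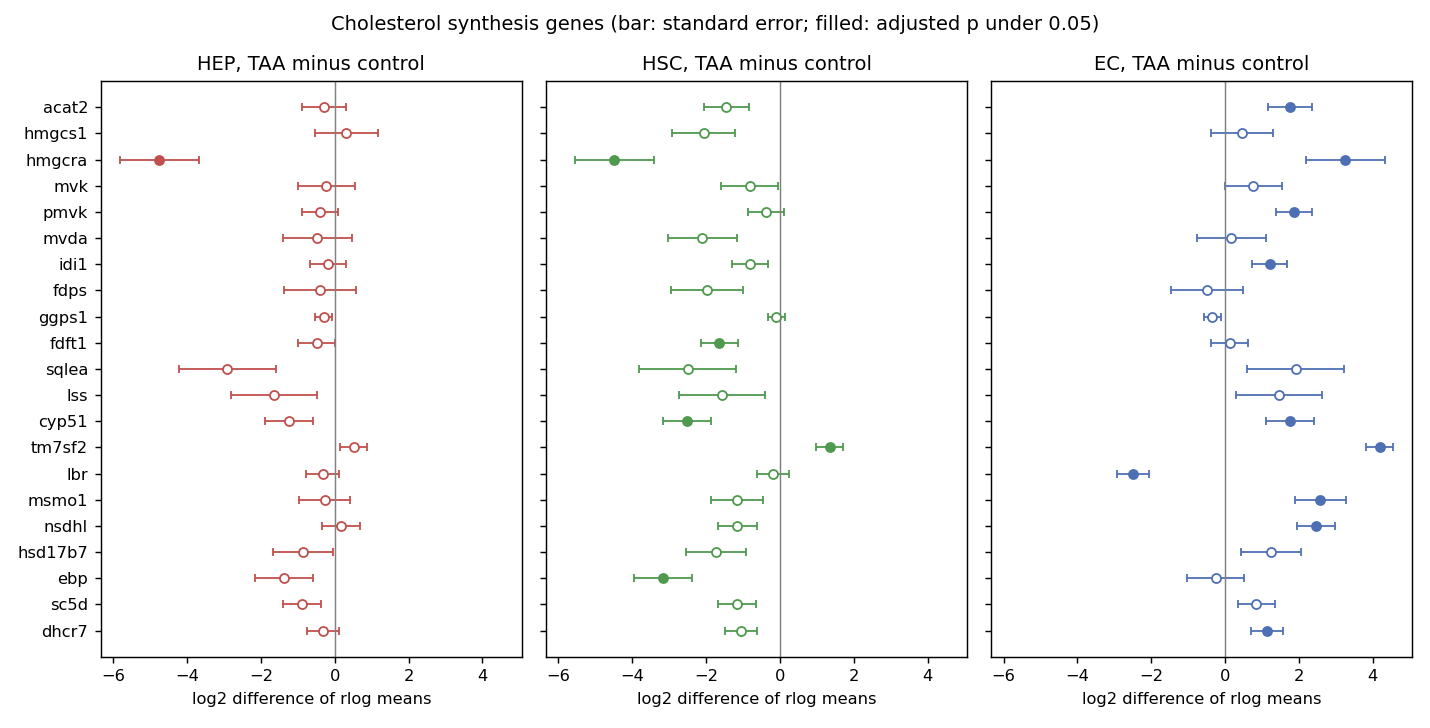
Log2 difference of the rlog means, TAA minus control, for 21 of the cholesterol synthesis genes in pathway order in HEPs, HSCs and ECs, with standard errors as bars and filled points for an adjusted p under 0.05. In HEPs only hmgcra (-4.75) is filled, in HSCs 4 genes are lower and tm7sf2 (1.35) is higher, and in ECs 9 are higher and lbr (-2.49) is lower.

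Among the TAA libraries themselves, a comparison chosen after the data were seen, HEPs had a mean hmgcra value of 1.09, HSCs of 4.41 and ECs of 4.86. The HEP libraries lay below those of both other types. The log2 difference was 3.32 (SE 1.07, limma adjusted p = 0.101) for HSCs minus HEPs and -3.76 (SE 1.07, adjusted p = 0.0556) for HEPs minus ECs. The hepatocyte marker mean was 12.89 in TAA ECs and 12.14 in TAA HEPs, and the lowest hmgcra value of a TAA EC library (2.62) was above the highest of TAA HEPs (1.52). For cyp51 the HSC minus HEP difference was 1.35 and the HEP minus EC difference -1.70, also without overlap of the libraries. For hmgcs1 these differences were 0.07 and 0.95. How many of all genes lacked overlap in these pairs was not counted. Of the 3 members 0 passed in any pair, where 3.88% of all genes passed for HSCs against HEPs, 5.24% for HSCs against ECs and 4.03% for HEPs against ECs. At an unadjusted p under 0.05 limma gave 1, 0 and 2 members in these pairs. In fits of only the libraries compared hmgcra (adjusted p = 0.00317) and cyp51 (adjusted p = 0.00464) were higher in HSCs than in HEPs, and cyp51 was lower in HEPs than in ECs (adjusted p = 0.00933). Over all genes 796 were then higher and 530 lower in HSCs than in HEPs. Between HEPs and ECs 545 were higher and 218 lower in HEPs. The cyp51 SD was 0.12 in TAA HEPs and 0.16 in TAA HSCs, while its SE in the main fit also pools control HSCs (SD 2.16).

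Within the controls, HEPs and ECs were compared with each other. Together they formed the reference side of the contrast that named the genes. That contrast did not compare HEPs with ECs, but these libraries were not independent of the choice. The hmgcra level was higher in HEPs by 4.24 (SE 1.01, limma adjusted p = 0.00438). The cyp51 difference was 1.30 (SE 0.79, limma adjusted p = 0.2) and that of hmgcs1 1.1 (SE 0.98, adjusted p = 0.389). The libraries of each gene did not overlap (exact permutation p = 0.1, n = 3 and 3). The share of all genes without overlap was not counted. So 1 of 3 members passed, where 43% of all genes did. In a fit of these 6 libraries cyp51 also passed (adjusted p = 0.0357), where 3442 of all 18336 genes were higher and 5290 lower in HEPs.

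Reporter-positive and reporter-negative control cells were compared to see whether a reporter marks cells with more or less of the transcripts. No member passed in any line. In HEPs the positive minus negative differences were -1.02 for hmgcra, -0.53 for hmgcs1 and -0.96 for cyp51, and 0.534% of all genes passed. In HSCs they were 2.57 (SE 1.12, limma adjusted p = 0.43), 1.48 (SE 0.94, adjusted p = 0.56) and 2.33 (SE 0.80, adjusted p = 0.34), and 0% of all genes passed, 1954 having an unadjusted p under 0.05. The positive HSC libraries are those in which the study named the genes as high, which favours a positive difference. The HSC differences were 1.25, -0.08 and 1.16 without positive replicate 3, and 1.76, 1.24 and 1.85 without negative replicate 3, which stood apart in its markers. In ECs they were -2.19 (SE 1.12, adjusted p = 0.157), -0.63 (SE 0.94, adjusted p = 0.664) and -1.32 (SE 0.80, adjusted p = 0.24), and 29.3% of all genes passed. In a fit of the EC line alone hmgcra (adjusted p = 0.0267) and cyp51 (adjusted p = 0.00476) were lower in the positive cells. In that fit 4328 of all 18336 genes were higher and 3536 lower in the positive cells. In the fit of all control libraries 14 of 14 hepatocyte markers were lower in positive than negative ECs, and their part in this was not tested. At an unadjusted p under 0.05 limma gave 0 of 3 members in HEPs, 2 in HSCs and 0 in ECs.

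The members varied together between replicates in several groups, but not in all. In the HEP line replicate 3 was the highest of its group for all members in both negative and positive control cells. Its deviation from the group mean was 1.95 for hmgcra, 1.48 for hmgcs1 and 1.39 for cyp51 in the negative cells, and 1.39, 0.53 and 0.96 in the positive cells. In control HSCs replicate 1 was lowest (-1.77, -2.41 and -1.93) and replicate 3 highest (2.63, 3.13 and 2.33). In the EGFP-negative cells replicate 3, which stood apart in its markers, was lowest (-1.63, -0.48 and -0.96). In TAA ECs replicate 3 was highest (2.73, 0.64 and 0.36) and replicate 2 lowest (-2.24, -0.73 and -0.34). TAA HSCs showed little deviation to share, at most 0.44 for hmgcra, 0.083 for hmgcs1 and 0.19 for cyp51. In control ECs the signs differed within each replicate. There replicate 1 had 1.30, 0.42 and -0.26, replicate 2 had -1.03, 0.44 and -0.11, and replicate 3 had -0.27, -0.86 and 0.37. Replicate 1 of TAA HEPs had 0.42, 0.92 and -0.13.

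Over the 27 deviations from the group means, Pearson's r was 0.761 between hmgcra and hmgcs1 (permutation within groups p = 0.00023, n = 27), 0.764 between hmgcra and cyp51 (permutation p = 0.00078) and 0.857 between hmgcs1 and cyp51 (permutation p = 0.005). These are the only 3 pairs, and adjusted over the pairs the permutation p-values were 0.00069, 0.00117 and 0.005. Spearman's rho was 0.749, 0.731 and 0.627 (permutation p = 0.00071, 0.00215 and 0.0133). Same-numbered positive and negative control libraries of the HEP and EC lines deviated together across genes, and these permutations ignore that. When such libraries were moved together, an alternative added after the data were seen, the exact permutation p for r over all 279936 orders was 0.000482, 0.00197 and 0.0151, or 0.00145, 0.00296 and 0.0151 adjusted over the pairs. The members had been chosen with results of these data known, so the p-values describe these libraries. The points share libraries and their unknown depth. Without the 2 libraries farthest from the median of the first gene of each pair, r was 0.717, 0.740 and 0.633, and without replicate 3 of control HSCs it was 0.700, 0.681 and 0.680. Within single lines (9 libraries each) r was 0.794, 0.875 and 0.772 in the HEP line and 0.898, 0.938 and 0.966 in the HSC line, but 0.665, 0.502 and 0.056 in the EC line. Within the 9 TAA libraries hmgcs1 and cyp51 had an r of 0.335.

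Few other genes followed the members as closely. Of 18335 other genes, 20 had a higher r with hmgcra than hmgcs1 had, and 19 a higher one than cyp51 had. In the other direction, 38 had a higher r with hmgcs1 than hmgcra had, and 25 a higher one with cyp51. For hmgcs1 6 genes had a higher r than cyp51, and for cyp51 3 had a higher r than hmgcs1. These counts were not repeated without control HSCs, whose replicates 3 and 1 deviated most of all libraries for hmgcs1 and cyp51. The signs of the deviations matched in 22 of 27 libraries for hmgcra and hmgcs1. They matched in 18 for hmgcra and cyp51 and in 17 for hmgcs1 and cyp51. The median r of all genes was -0.085 with hmgcra, -0.058 with hmgcs1 and -0.077 with cyp51. Mean levels of stellate markers deviated the other way from the members, with an r of -0.50, -0.40 and -0.60 for hmgcra, hmgcs1 and cyp51, and hepatocyte markers had 0.25, 0.001 and 0.19. Their part in the covariation was not tested.

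**Figure D4:**
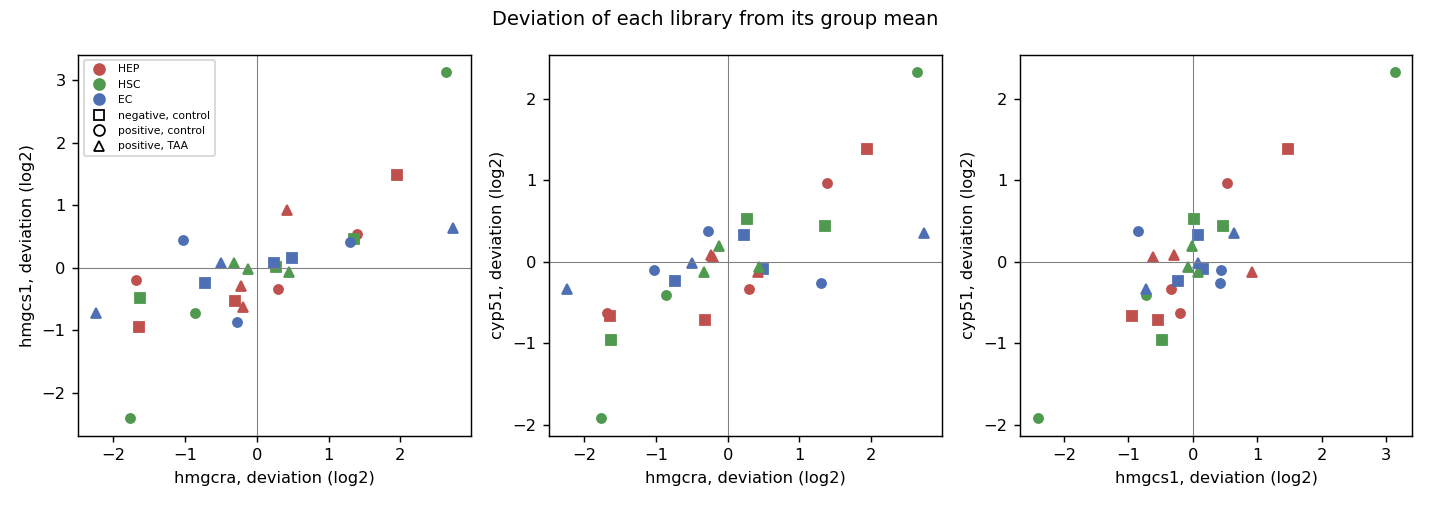
Deviation of each of the 27 libraries from its group mean (log2) for the pairs hmgcra and hmgcs1, hmgcra and cyp51, and hmgcs1 and cyp51, coloured by line, with squares for negative control, circles for positive control and triangles for TAA libraries. The points rise together (r = 0.761, 0.764 and 0.857). Replicates 3 and 1 of control HSCs are at the ends for hmgcs1 and cyp51, and replicates 3 and 2 of TAA ECs for hmgcra.

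The genes whose deviations were most like those of all members, ranked by the smallest of the correlations over 27 libraries, began with sqlea (0.824), squalene epoxidase. In control HSCs sqlea was at -0.07, 0.65 and 7.72, and the ranks were not computed without these libraries. Further genes among the first 10 were zgc:63694 (0.791), 1 gene with no symbol (ENSDARG00000101256, 0.785), pgrmc2 (0.749), a membrane haem-binding protein, and cpt1a (0.737), which carries fatty acids into mitochondria. The list ended with an RNA of the signal recognition particle (ENSDARG00000113506, 0.734) and lmf2b (0.733). Of the 19 other cholesterol synthesis genes, 7 were among the first 100 genes. These included fdft1 (0.692), squalene synthase, hsd17b7 (0.675), mvda (0.650), the mevalonate diphosphate decarboxylase, msmo1 (0.640) and dhcr7 (0.640). The median of these 19 was 0.544, where that of all genes was -0.166, and ggps1 (-0.425), which makes geranylgeranyl diphosphate outside the sterol arm, and lbr (-0.537), a sterol reductase that is also a nuclear lamina receptor, were negative. By the rlog values themselves, which add the differences between groups, the most alike genes were sc5d (0.802), slc35b1 (0.789), arf4a (0.775), hyou1 (0.772), slc17a9 (0.768), dhcr7 (0.760), atf6 (0.757), sec61a1 (0.755), srp54 (0.752) and cars1 (0.751). Of these, sc5d and dhcr7 are sterol arm enzymes, hyou1 and atf6 belong to the stress response of the endoplasmic reticulum, and sec61a1 and srp54 serve entry of proteins into it.

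The other genes of the pathway were read from a list of 25 symbols, of which 22 including the members were found. Replicate 3 of control HSCs was the highest of all 27 libraries for 19 of the 22, while it was the highest for 9.42% of all genes. The study named the members and sc5d, msmo1, nsdhl and dhcr7 as higher in control HSCs. That choice favours high values in these libraries, so the 19 are not independent of it.

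With TAA, 0 of the 22 genes rose and 1, hmgcra, fell in HEPs (limma, adjusted p under 0.05). This share is no larger than the 7.4% of all genes that passed there. The median log2 difference of the 22 was -0.40, against -0.018 for all genes. Differences that did not pass included those of sqlea (-2.91, adjusted p = 0.198) and lss (-1.63, adjusted p = 0.444), the lanosterol synthase. In HSCs 1 rose and 4 fell, where 8.21% of all genes passed, with a median of -1.45 against -0.063. The study named the members and sc5d, msmo1, nsdhl and dhcr7 as higher in control HSCs, which favours falls of these genes here. Besides hmgcra and cyp51, ebp (-3.17, adjusted p = 0.0159), a sterol isomerase, and fdft1 (-1.65, adjusted p = 0.0476) fell, and tm7sf2 (1.35, adjusted p = 0.0295), a sterol reductase, rose. In the mevalonate arm hmgcs1 (-2.06), mvda (-2.11) and fdps (-1.97), the farnesyl diphosphate synthase, had differences of like size to cyp51 that did not pass. Without replicate 3 of control HSCs 0 fell and 1 rose, and the median was -0.40. Over all 18336 genes 721 fell and 621 rose in that fit. At an unadjusted p under 0.05 limma gave 5 of 22 there, and 4071 of all genes. Without replicate 1, 11 of the 22 fell and the median was -2.09, where 851 of all genes fell.

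In the libraries labelled as ECs 10 of the 22 rose and 1 fell, with a median of 1.23 against -0.25 for all genes. These 11 of 22 are close to the 51.2% of all genes that passed there in either direction. By direction, 3611 of 18336 genes rose and 5776 fell (5833 and 3756 with libraries centred on their median). The list thus leaned more towards rises than all genes did. In the same libraries 14 of 14 hepatocyte markers rose, whose part in this was not tested. From the start of the pathway, acat2 (1.75), a thiolase, hmgcra, pmvk (1.86), the phosphomevalonate kinase, and idi1 (1.2), the isopentenyl diphosphate isomerase, rose. In the sterol arm cyp51 and tm7sf2 (4.18) rose among others, as did msmo1 (2.58) and nsdhl (2.46), which act in removing further methyl groups, and the reductase dhcr7 (1.14), while lbr fell by 2.49. The genes hmgcs1, mvk (0.76), mvda (0.16), fdps (-0.49), ggps1 (-0.35), fdft1 (0.13), sqlea (1.91), lss (1.45), hsd17b7 (1.25), ebp (-0.26) and sc5d (0.85) did not pass. Without control replicate 2 or TAA replicate 3, 4 rose and 1 fell. The pathway mean was 2.80 in control ECs, 3.95 in TAA ECs and 3.66 in mCherry-negative control cells, whose hepatocyte marker mean was 11.93.

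The genes that sense and take up sterols were described beside them. The counts of this list and the next ones stand beside background shares. In either direction these are 7.4% for HEPs, 8.21% for HSCs and 51.2% for ECs. Of 13 found, 0 rose and 1 fell in HEPs, namely ldlra (-2.66, limma adjusted p = 4e-05), an LDL receptor gene. In HSCs 1 rose and 4 fell, ldlrb (-3.05), insig1 (-1.69), the sterol carrier gene stard4 (-1.65) and srebf1 (-1.21). In ECs 4 rose and 1 fell, a share below that of all genes, among them npc1l1 (4.15), a sterol importer, and ldlra (3.28), while mylipa (-2.53), which encodes a ligase that degrades LDL receptors, fell. The direction of ldlra thus followed that of hmgcra in HEPs and ECs. In HSCs ldlra was also lower, as hmgcra was, but did not pass (-0.71, limma adjusted p = 0.149). The gene of SREBP-2, srebf2, did not pass in any cell type, with differences of the same signs (HEP -0.92, HSC -0.18 and EC 0.19). Both srebf2 and srebf1 are named outside the rule for named genes, after their values were seen.

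Of 13 genes of sterol fate (efflux, esterification and bile acid synthesis) 1 rose and 2 fell in HEPs, 1 rose and 1 fell in HSCs, and 10 rose and 1 fell in ECs. The rises in ECs accompany those of 14 of 14 hepatocyte markers (median log2 difference 4.52), whose part was not tested. The efflux transporter gene abca1b fell in each (-1.54, -1.54 and -4.38). Its call in HEPs ended in a fit of only the libraries compared (adjusted p = 0.0574) and without control replicate 2 or 3 or TAA replicate 2 or 3 (adjusted p from 0.0713 to 0.0879). In HSCs it ended without control replicate 1 (adjusted p = 0.0558) or TAA replicate 3 (adjusted p = 0.0934), and in ECs it held in every fit. In ECs lcat (5.18), soat2 (4.28), which esterifies cholesterol, abcg8 (3.87), cyp7a1 (3.74), the rate-limiting enzyme of bile acid synthesis, and abcg5 (3.53) rose. Of 13 fatty acid synthesis genes 1 rose and 2 fell in HEPs, 1 rose and 3 fell in HSCs, and 4 rose and 2 fell in ECs, there a share near that of all genes. Among these elovl6 (4.25) rose and elovl2 (-2.82) fell in HEPs, fasn (-2.62), scd (-2.17) and elovl2 (-1.94) fell in HSCs, and elovl2 (3.47) rose and me1 (-3.78) fell in ECs. In the order HEP, HSC and EC the list medians were -0.13, -0.36 and 0.60 for sensing and uptake, 0.47, -0.10 and 2.28 for sterol fate, and -0.12, -0.49 and 0.44 for fatty acid synthesis.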

How the data were processed

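RNA was sequenced by the authors from 27 libraries in 9 groups of 3. Per the paper and the submitters' processing notes, reads were checked with FastQC 0.11.8, trimmed with cutadapt 1.18, cleared of ribosomal reads, aligned to GRCz11 with STAR 2.6 and filtered with SAMtools 1.9. The deposited table gives 18336 genes as DESeq2 regularized logarithms (rlog), a log2 unit, with a range of -2.62 to 22.57. They are not counts, and the counting tool and annotation release are not given in the sources used here. No depth can be read from them, so precision is given by the spread between libraries.

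Values were used unfiltered. Groups were compared with limma 3.58.1 in R 4.3.3 (group means, eBayes with trend), calling an adjusted p under 0.05 (Benjamini-Hochberg, all genes), in fits of the 18 reporter-positive libraries, the 18 control libraries or the 9 reporter-positive control libraries. The method was tested on simulated data. Single values used two-sided exact permutation tests (smallest p 0.1), and correlations used 100000 permutations within groups, or all orders with paired libraries kept together. Other steps used scipy 1.17.1, pandas 2.3.3 and numpy 2.4.6 in Python 3.11.15, with plots from matplotlib 3.10.9. Symbols were matched from the study's cluster table and a gene name table (17244 of 18336 genes). Named genes are the 3 members, the found genes of the cholesterol synthesis list, up to 6 passing genes of each other list, and the 10 most alike genes by each measure, except that some of these genes are not reported here. The members and lists were chosen with earlier results of these data known. Promoters were not analysed here.

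The alternatives were only the libraries compared, no variance trend, genes with a mean of at least 3, median centring, quantile normalization, a replicate block and leaving out each library. Replicate numbers come from the labels. The methods count fewer control fish than control replicates, so some control libraries may share a fish, and errors may be too small. Same-numbered positive and negative libraries deviated together in the HEP line (r from 0.114 to 0.157 across genes) and the EC line (0.134 to 0.186). In the HSC line they did not in the same way (-0.060 to 0.138). What libraries of the same number share is not stated. The permutation with paired libraries therefore treated the numbers as pairs in the HEP and EC lines only.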

Additional observations from a re-analysis of the deposited data

Results flagged for a closer look

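The TAA change of hmgcra and cyp51 differed between cell types by a limma interaction test over all genes. Both genes were higher with TAA in ECs and lower in HSCs and HEPs. The cyp51 difference in HEPs (-1.23) did not pass, and every call within a cell type ended without some single library. For hmgcra the EC change minus the HSC change was 7.75 (adjusted p = 0.000355), and minus the HEP change 8.0 (adjusted p = 0.000283). For cyp51 the EC change minus the HSC change was 4.28 (adjusted p = 0.000839), and minus the HEP change 3.0 (adjusted p = 0.0132). All of these rest on the libraries labelled as TAA-treated ECs, whose endothelial marker mean was 0.80 and hepatocyte marker mean 12.89, and the part of this in the differences was not tested. The EC minus HSC values also rest on control HSCs, in which the study named these genes as high. The reference of that contrast was control HEPs and ECs, so the choice favours positive EC minus HSC values.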

How the results depend on the processing

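Removing the variance trend and quantile normalization changed no member's call. Median centring moved the median TAA change of all genes in ECs from -0.25 to 0.32. There hmgcs1 passed for the EC minus HSC change (3.16, limma adjusted p = 0.042) and hmgcra for TAA HEPs minus ECs (-3.92). In ECs 12 sensing and 11 fatty acid genes then passed, where 5833 of 18336 genes were higher and 3756 lower. The centred hmgcs1 level in TAA HSCs was 5.89. With genes of a mean of at least 3, hmgcra passed for TAA HEPs minus ECs (-3.76), and 2 cholesterol synthesis and 2 sensing genes passed in HEPs. In fits of only the libraries compared, cyp51 in HSCs (-2.51) and hmgcra in ECs (3.26) no longer passed with TAA. There hmgcra (3.32) and cyp51 (1.35) passed for TAA HSCs minus HEPs, cyp51 for TAA HEPs minus ECs (-1.70) and control HEPs minus ECs (1.30), and hmgcra (-2.19) and cyp51 (-1.32) for positive minus negative ECs. The counts of all genes in the fits where these passed are given with each comparison above. The main SEs pool all groups of a fit, and the cause of the changed calls was not tested.

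With the replicate block the call of no member changed (hmgcra with TAA in HEPs -4.75, HSCs -4.49 and ECs 3.26). Genes called between positive and negative HEPs went from 98 to 26 with this block. Same-numbered TAA and control libraries deviated together little or not at all (r from -0.043 to 0.066). In the EC line each TAA library had its highest r with the control library of its own number, at 0.041, 0.012 and 0.066.

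Leaving out 1 library at a time gave TAA differences in HEPs from -5.59 to -4.05 for hmgcra and -0.15 to 0.62 for hmgcs1. In HSCs they were -5.37 to -3.17 (hmgcra), -3.26 to -0.50 (hmgcs1) and -3.48 to -1.35 (cyp51), and in ECs 1.89 to 4.38 (hmgcra) and 1.59 to 1.95 (cyp51). The mean change was -0.83 to 0.090 for hmgcs1 and -0.98 to -0.27 for cyp51. The HSC minus HEP change of hmgcra was -0.63 to 1.58, and for hmgcs1 the EC minus HSC change was 0.95 to 3.72 and the EC minus HEP change -0.29 to 0.60. Among TAA libraries hmgcs1 was -0.24 to 0.52 for HSCs minus HEPs, and hmgcra -1.56 to 0.92 for HSCs minus ECs and -4.88 to -2.39 for HEPs minus ECs. Positive minus negative hmgcs1 was -1.0 to 0.21 in HEPs and -0.082 to 2.69 in HSCs. Genes passing with TAA numbered 0 to 1, 0 to 11 and 5 to 10 for cholesterol synthesis in HEPs, HSCs and ECs, 1 to 2 and 1 to 6 for sensing in HEPs and HSCs, 1 to 3 and 0 to 2 for sterol fate, and 2 to 4 for fatty acid synthesis in HSCs.

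The r of hmgcs1 and cyp51 was 0.621 without control HSCs, 0.633 without the 2 farthest libraries, 0.335 in TAA libraries and 0.056 in the EC line, with a rho of 0.627, and the r of hmgcra and cyp51 was 0.502 in the EC line.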
